A study of Mus musculus with 2 samples.

Results

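The Sfmbt2 miRNA cluster is a long run of small hairpin genes inside 1 intron of Sfmbt2. Its members were chosen by position alone, as every miRNA gene of the GENCODE M21 annotation that lies within the Sfmbt2 gene body on chromosome 2 and on the same strand. This gave 119 genes of the 2202 annotated miRNA genes. Of these, 107 were counted in the files, among 1973 gene rows in all, and the other 12 were not analysed here. The tissue was the facial prominence of B6NCrl mice at embryonic day 14.5, which the labels also call cranioface, and its miRNAs were sequenced in 2 libraries. These are biological replicates 1 and 2 of a single group, with no treatment or altered allele labelled. The labels speak of 1 face from 1 pup but list the sex as pooled, which leaves unsettled how many embryos a replicate holds. P-values between the libraries come from the read counts of 1 library against 1 library, so they hold counting error only and compare these 2 libraries, with no estimate of the spread between samples.

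Sfmbt2 encodes a Polycomb group protein. The gene is imprinted and is expressed from the paternal allele in extraembryonic tissues, and the intronic miRNAs, found in rodents, are best known from the placenta and trophoblast. A miRNA is a short strand cut from a hairpin RNA, and it guides a silencing complex to target messages, mainly through its seed, the bases near its 5′ end. The cluster arose by repeated duplication of a few hairpin types, named Mir297, Mir466, Mir467 and Mir669, so many members are near copies of each other. A read from such a copy fits several places in the genome. Only reads with a single position are counted in files of this layout, that of STAR gene counts, so counts of near-identical members can be too low.

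The sequences below are examples from some of these named families, and not from the cluster itself. They are mature miRNAs of the Mir466, Mir467 and Mir669 families from genes elsewhere in the mouse genome, taken from RefSeq (GRCm38.p6), with the seed, bases 2 to 8, in capitals.

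mmu-miR-467h: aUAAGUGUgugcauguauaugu

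mmu-miR-467f: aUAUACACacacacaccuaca

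mmu-miR-466j: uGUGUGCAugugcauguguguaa

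mmu-miR-669n: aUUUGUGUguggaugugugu

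Stretches in which U and G, or C and A, alternate run through each of them. None of the 4 occurs exactly in a cluster hairpin. With 1 mismatch allowed, miR-467h was found in the hairpins of Mir467c and Mir467e, and miR-669n in that of Mir669c. With the same allowance miR-467f was found in 12 cluster hairpins, namely those of Mir467a-1 to Mir467a-10, Gm25022 and Mir467d. For miR-466j the number was 10, and for miR-466q, not shown, it was 0. Seed letters were searched anywhere in a hairpin, on its own strand. Those of miR-466j occurred in 62 of the 119 cluster hairpins. Over all 2202 annotated miRNA hairpins, the cluster included, they occurred in 106 (4.81%). Those of miR-467f occurred in 27 cluster hairpins and 113 of all (5.13%), and those of miR-669n in 10 and 57 (2.59%). For miR-467h these numbers were 1 and 14 (0.636%).

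In the counted reads the cluster stood at a modest level, and 6 of its genes gave nearly all of them. Reads with several genome positions are left out, so the cluster's sum can be too low. Gene-strand counts of the cluster were 15731 in replicate 1 and 35709 in replicate 2. Scaled to a gene-strand total of 1000000 in each library (the unit CPM), the cluster stood at 5785 CPM in replicate 1 and 5409 CPM in replicate 2, a mean of 5597 ± 266 CPM (SD, n = 2). This is 0.579% of the counts of replicate 1 (95% Wilson interval 0.570 to 0.588) and 0.541% of those of replicate 2 (0.535 to 0.547). Such intervals cover counting error only. The 6 highest members, Mir467d, Mir467e, Mir467c, Mir669l, Mir669o and Mir669c, held 99.0% of the cluster's counts in replicate 1 and 99.3% in replicate 2.

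Most members had no counted read. Of the 107 members, 25 (23.4%) had at least 1 count over both libraries, against 717 of all 1973 gene rows (36.3%). At least 10 counts in each library were reached by 10 members (9.35%) and by 350 of all rows (17.7%), and a mean of at least 100 CPM by 6 members (5.61%) and 202 of all rows (10.2%). The median level was 0 CPM both in the cluster and over all rows. These shares describe the sets, and their differences were not tested. In both libraries 82 members were at 0. The limit that a 0 sets, 3 counts, or 1.10 CPM in replicate 1 and 0.454 CPM in replicate 2, covers uniquely placed reads only. It gives no bound for the 41 of them whose hairpins are copied in other miRNA genes along their whole length. For the other 41 it covers only reads from the stretches of the hairpin that are not copied, which can be short.

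Gene-strand totals were 2719153 counts in replicate 1 and 6602050 in replicate 2, so replicate 2 gives the smaller counting error. Reads with several genome positions, which are in no gene's count, made up 29.8% and 28.5% of all reads, and the files do not say which genes they came from. Markers of the tissues of the face were all detected. Cartilage miRNAs (Mir140 and Mir455) summed to 42578 ± 1238 CPM (SD, n = 2), epithelial ones to 59153 ± 10671 CPM, mesenchymal ones to 14881 ± 3906 CPM, skeletal muscle ones (Mir206 and Mir133b) to 12530.5 ± 1157 CPM and endothelial Mir126a to 47919 ± 8833 CPM. Erythroid markers were at 1229 ± 222 CPM and liver Mir122 at 9.05 ± 4.88 CPM. Pluripotency and trophoblast markers (the miR-302 and miR-290 clusters) were at 160.2 ± 41.3 CPM, with 9 of 11 detected and Mir367 and Mir290a at 0. Most of this sum came from the miR-302 cluster, with mean levels of 64.2 CPM for Mir302a, 46.1 for Mir302d and 32.3 for Mir302b. The highest miR-290 cluster gene was Mir294 at 4.75 CPM. What part the marked cell types have in the cluster's counts was not tested.

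The Mir467 genes were the best counted family of the cluster. Their sum was 4690 CPM in replicate 1 and 4391 CPM in replicate 2, which was 81.1% and 81.2% of the cluster. Almost all of it came from 3 of the 14 genes. The 10 Mir467a copies and Mir467b had 0 to 2 counts each in either library. The hairpins of these 10 copies recur in other miRNA genes along their whole length, so their counts can be too low.

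Mir467d was the highest member and ranked 74 among the 1973 rows. It had 6007 counts in replicate 1 (2209 CPM) and 15193 in replicate 2 (2301 CPM), a mean of 2255 ± 65.1 CPM. It alone held 38.2% and 42.5% of the cluster's counts. The gene (ENSMUSG00000077021.2) lies at 10507630 to 10507714 on chromosome 2, plus strand, of assembly mm10.

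Mir467e (ENSMUSG00000076948.2, 10505721 to 10505807) lies upstream of it and is its nearest relative in the cluster, with 7 edits between hairpins of 87 and 85 bases. It had 3789 counts in replicate 1 (1393 CPM) and 6617 in replicate 2 (1002 CPM), a mean of 1198 ± 277 CPM. Mir467c (ENSMUSG00000077049.2, 10473931 to 10474027) lies at the other end of the cluster. It had 2957 counts in replicate 1 (1087 CPM) and 7177 in replicate 2 (1087 CPM), a mean of 1087 ± 0.272 CPM. Mir467d was above both in each library. The order of Mir467e and Mir467c turned between the libraries, with Mir467e higher in replicate 1 and Mir467c in replicate 2.

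The Mir669 genes followed, with a sum of 1076 CPM in replicate 1 and 1003 CPM in replicate 2. They were 18.6% of the cluster in replicate 1 and 18.5% in replicate 2. Of the 20 Mir669 genes counted, 7 were detected and 5 had at least 10 counts in each library.

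Mir669l (ENSMUSG00000076959.1, 10468971 to 10469068) had 1228 counts in replicate 1 (452 CPM) and 2787 in replicate 2 (422 CPM). Mir669o (ENSMUSG00000077086.1, 10514300 to 10514395) had 1174 (432 CPM) and 2819 (427 CPM). Their order turned between the libraries too, so the 2 genes cannot be ranked. Mir669c (ENSMUSG00000076118.1, 10509296 to 10509404) was lower, with 421 counts in replicate 1 (155 CPM) and 858 in replicate 2 (130 CPM). Mir669e had 87 and 127 counts (32.0 and 19.2 CPM). Mir669h, the last gene of the cluster, had 13 and 19 counts (4.78 and 2.88 CPM), and Mir669f had 2 and 11. Mir669l, Mir669o and Mir669c thus stood above 100 CPM in both libraries, and Mir669e, Mir669h and Mir669f well below it.

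Mir466 and Mir297 genes had few reads. The 20 counted Mir466 genes summed to 14.0 CPM in replicate 1 and 11.1 CPM in replicate 2. Most of that was Mir466n, with 28 and 53 counts (10.3 and 8.03 CPM). Mir466 itself had 3 and 7 counts, Mir466h 3 and 5, and Mir466b-3 1 and 6. The 5 Mir297 genes summed to 4.05 and 2.27 CPM, and Mir297a-2 held 10 and 15 of those counts. A further 48 members carry only a Gm name, and 4 of them were detected, with 2 counts in all in replicate 1 and 7 in replicate 2. Gm22072, the first gene of the cluster, had 0 and 3.

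**Figure D1:**
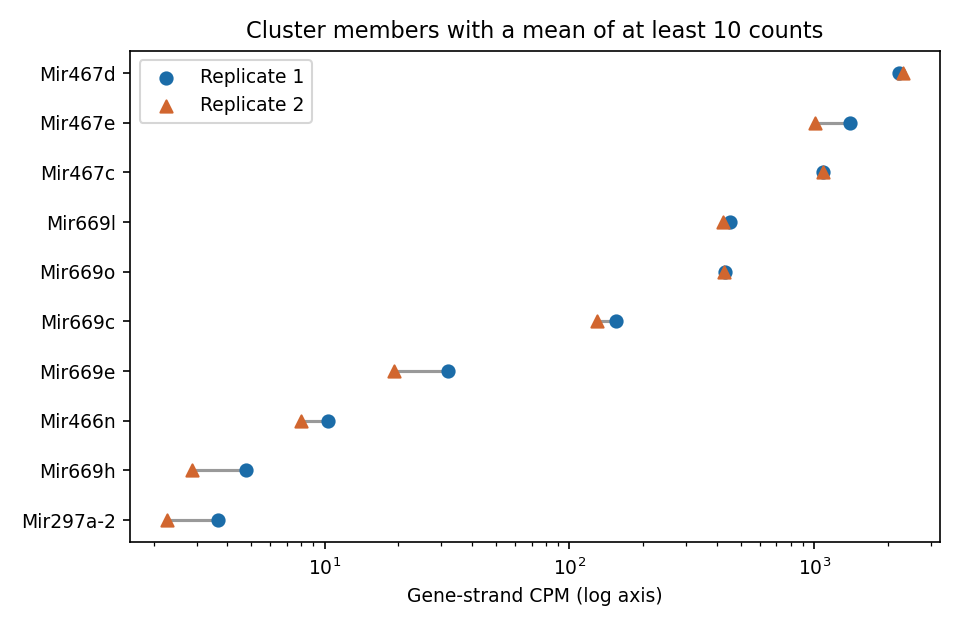
Gene-strand CPM (log axis) of the 10 cluster members with a mean of at least 10 counts, circles for replicate 1 and triangles for replicate 2, joined by a line. Mir467d stands highest at 2209 and 2301 CPM and Mir297a-2 lowest at 3.68 and 2.27 CPM, and the symbols of Mir467c and Mir669o nearly coincide.

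All 119 members lie in intron 11 of an Sfmbt2 transcript of 23 exons, and none overlaps an annotated Sfmbt2 exon. Sfmbt2 (ENSMUSG00000061186.15) spans 10370510 to 10595253 on the plus strand of chromosome 2 in mm10, and this intron runs from 10461473 to 10523944, or 62472 bases. The cluster covers 53.0 kb of it, with a median gap of 206 bases between neighbouring hairpins. No miRNA gene lies on the opposite strand of the gene body. Reads on the strand opposite to the members numbered 1 in replicate 1, at Mir467b, and 0 in replicate 2.

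The counted members lay at the 2 ends of the cluster, and its middle was nearly empty. The middle is a tandem array of 65 genes from Mir467a-1 to Mir467a-10, in which the Mir467a copies recur at a median spacing of 2462 bases (range 2413 to 4880). These bounds were chosen after the values were seen, and Mir467 genes go on at similar spacing beyond them. Mir467c, at 8.644 kb from the first cluster gene, precedes Mir467a-1 at 11.059 kb. Mir467e, at 40.434 kb, follows Mir467a-10 at 37.986 kb. Both are well counted, so the contrast between array and ends depends partly on where the bounds were set. The 55 array members that were counted had 1 count together in replicate 1 and 3 in replicate 2, at Mir467a-1 and Mir467b. The 20 counted members before the array had 4287 and 10123 counts, which is 1577 and 1533 CPM. The 32 after it had 11443 and 25583 counts, which is 4208 and 3875 CPM. Thus Mir467d, Mir467e, Mir669o and Mir669c lie after the array, and Mir467c and Mir669l before it.

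**Figure D2:**
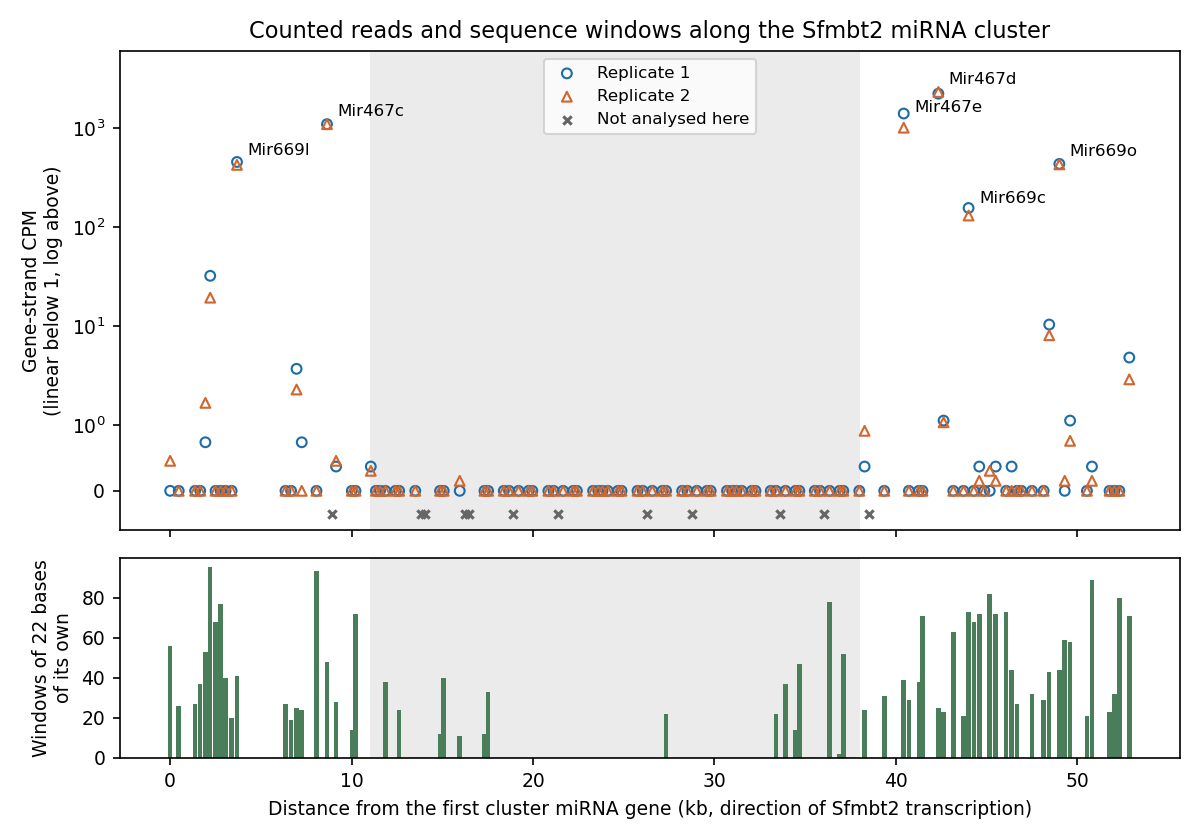
Top, gene-strand CPM of each counted member (linear below 1, log above) against its distance in kb from the first cluster gene, circles for replicate 1, triangles for replicate 2 and crosses for the 12 members not analysed here; bottom, the number of 22-base windows of each hairpin that occur in no other miRNA hairpin. The shaded tandem array runs from 11.1 to 38.0 kb, bounds that were chosen after the values were seen. In it levels sit at or next to 0 and 50 of 65 genes have no window of their own. The 6 high members lie outside it.

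The array also holds most of the hairpins that are copies of each other. The 119 hairpins hold 88 different sequences, and 47 members share an identical hairpin with at least 1 other member. The largest set of identical hairpins is Mir669a-4 to Mir669a-12, 9 genes, none of them analysed here. The next is Mir467a-2, Mir467a-4, Mir467a-5, Mir467a-7, Mir467a-8, Mir467a-9 and Gm25022, 7 genes with 0 counts in each library. To measure this, every stretch of 22 bases of a hairpin, about the length of a miRNA, was looked up in the hairpins of all annotated miRNA genes on both strands. A stretch found nowhere else is called a window of its own. Copies outside annotated miRNA genes were not searched, so the number of such windows is an upper limit.

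Members without a window of their own were all but uncounted. There were 54 of them in the cluster, 50 in the array, 1 before it and 3 after it. Of the 42 that were counted, 1 had any reads, Mir467a-1 with 1 and 2 counts. Of the 65 counted members that have such a window, 24 were detected and 10 had at least 10 counts in each library. By place, 8 of 20 such members were detected before the array and 15 of 30 after it. In the array 1 of 15 was, Mir467b with 1 count in replicate 2. Why the array had so few counts was not tested. Over all gene rows with a sequence the same split gave 4 detected of 254 (1.57%) without a window and 711 of 1640 (43.4%) with one. Of those 4, 1 had at least 10 counts in each library, so a row without a window can still have reads. Rows without a window made up 39.3% of the cluster and 12.9% of all 1973 rows. That total also holds rows with no known sequence, whose windows could not be looked up. Under unique placement a 22-base read from such a hairpin would not be counted, so a 0 in these members does not bear on whether the hairpin was expressed.

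Having a window of its own did not ensure that a member had counts. The other 41 members at 0 had 2 to 93 such windows, with a median of 32, while the 10 best counted members had 25 to 95, with a median of 43.5. Hairpins at 0 were longer, with a median of 118 bases against 96.5, so the same number of windows is a smaller share of them. Gm26073 had 93 windows of its own and Mir669i 80, each out of 106, and each had 0 counts in both libraries. Mir467d, the highest member, had 25. Its windows lay mostly on the 5′ side of the hairpin, 19 against 6 on the 3′ side, and those of Mir467e were evenly placed, 20 and 19. Mir466n had 7 and 36, and Mir297a-2 had 0 and 25. The files count per gene and do not tell the 2 arms apart.

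**Figure D3:**
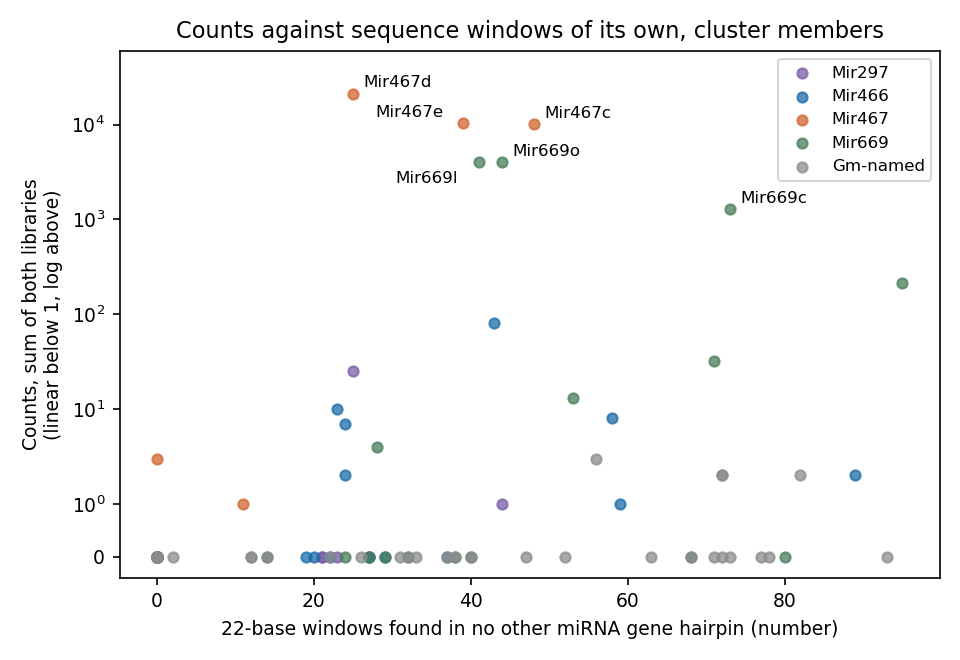
Counts summed over both libraries (linear below 1, log above) against the number of 22-base windows found in no other miRNA hairpin, for the 107 counted members, coloured by family. All points at 0 windows lie at 0 counts except Mir467a-1 with 3, and at higher window numbers both well counted members and members at 0 appear.

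The cluster's hairpins also share their composition. Their GC content was 29.0 to 43.4% with a median of 37.3%, against a median of 50.8% over all 2202 miRNA genes. Runs of at least 6 bases in which T and G, or C and A, alternate occurred in 116 of the 119 hairpins (97.5%) and in 21.6% of all. They covered a median of 23.9% of a cluster hairpin, against 0% over all. Predicted folding energy, computed with RNAfold, had a median of -38.1 kcal/mol per 100 bases in the cluster and -36.9 over all miRNA genes. It was -40.2 in the 10 members with at least 10 counts in each library, -35.1 in the members at 0 that have a window of their own and -37.6 in those at 0 that have none. The ranges of these 3 sets overlap widely, from -57.3 to -26.3 in the first and from -54.2 to -20.9 in the second.

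The 10 genes that carry these family names at other places in the genome had next to no reads. All have a row and all had windows of their own, from 22 in Mir297-1 to 92 in Mir466f-4 and Mir466j. Only Mir466q on chromosome 3 had a read, 1 in replicate 1. Mir467f, Mir467g, Mir467h, Mir466i, Mir466k and Mir669n had 0 in both libraries. Among genes with these family names, counted reads thus came from the Sfmbt2 intron in all but this 1 case. Gm-named copies elsewhere and the 79 rows without a name were not searched for members of these families.

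The other large imprinted miRNA cluster of the mouse, on chromosome 12 from Meg3 to Mirg on the strand of Meg3, stood much higher. Its 53 counted genes summed to 127796 ± 88.8 CPM (SD, n = 2), 48 were detected and 45 had at least 10 counts in each library. Only 1 of the 53 lacks a window of its own, against 42 of 107 in the Sfmbt2 cluster, so the 2 sums are not affected alike by reads with several positions. Single imprinted miRNAs also stood above the highest Sfmbt2 member. Mir335 of the Mest gene was at 51763.5 ± 7238 CPM, Mir298 at 4913 ± 19.7 CPM, Mir296 at 3749 ± 506 CPM and Mir483 of Igf2 at 2954 ± 168 CPM. Mir675 of H19 was lower, at 86.5 ± 5.13 CPM. Levels of different miRNAs carry biases of adapter ligation, which these files cannot show.

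The 2 libraries gave nearly the same cluster total and differed at single members. The log2 ratio of the cluster sum, replicate 2 over replicate 1, was -0.097 with a counting SE of 0.014 (exact binomial test of the summed counts, p = 2.58e-12). Its direction depended on the scaling and on 1 gene. It was 0.076 with TMM and 0.086 with DESeq2 size factors, and 0.0048 with a p of 0.76 by the exact binomial test without Mir467e. The difference in total is thus smaller than the shift between scalings.

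Of the 10 members with a mean of at least 10 counts, 4 were called different between the libraries by an exact two-sided binomial test with Benjamini-Hochberg adjustment over all 372 tested genes. Over all tested genes 53.0% were called, 17.2% higher and 35.8% lower in replicate 2. Of the 4 members, 1 was higher and 3 lower, and against this background their number is no result about the cluster. With TMM scaling 5 members were called, 3 higher and 2 lower, and over all genes 108 higher and 80 lower in place of 64 higher and 133 lower. The members' median log2 ratio was -0.31, against -0.14 over all tested genes. With TMM these medians were -0.14 and 0.031, since that scaling raises every ratio by 0.17. Of the 9 imprinted miRNAs counted, 6 were called lower and 1 higher in replicate 2, with a median log2 ratio of -0.20, beside the 35.8% lower, 17.2% higher and median of -0.14 over all tested genes.

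Mir467e had the smallest adjusted p of the members and was lower in replicate 2 by 0.48 on the log2 scale, or 1.39-fold (log2 ratio -0.48, counting SE 0.029, exact binomial test, adjusted p = 4.14e-56). It was also lower with TMM (-0.30) and DESeq2 size factors (-0.29). Its near copy Mir467d went the other way, at 0.059 with a counting SE of 0.022 (exact binomial test, adjusted p = 0.0151), and at 0.23 with TMM. Mir467c stood at -0.00065 and did not pass the test, but it was called higher with TMM at 0.17.

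Mir669e was lower in replicate 2 (-0.74, counting SE 0.20, exact binomial test, adjusted p = 0.000988) under each scaling. Mir669c was lower as well (-0.25, counting SE 0.086, exact binomial test, adjusted p = 0.00778), but it was not called with TMM (-0.081) or DESeq2 size factors (-0.070). Mir669l had a log2 ratio of -0.098 and Mir669o of -0.016, and neither was called. With TMM Mir669o was called higher at 0.16, and Mir669l stood at 0.075, not called. Mir466n (-0.37), Mir669h (-0.75) and Mir297a-2 (-0.72) did not pass the test, and their counting SEs of 0.33 to 0.58 leave a difference of that size undetectable at this depth.

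**Figure D4:**
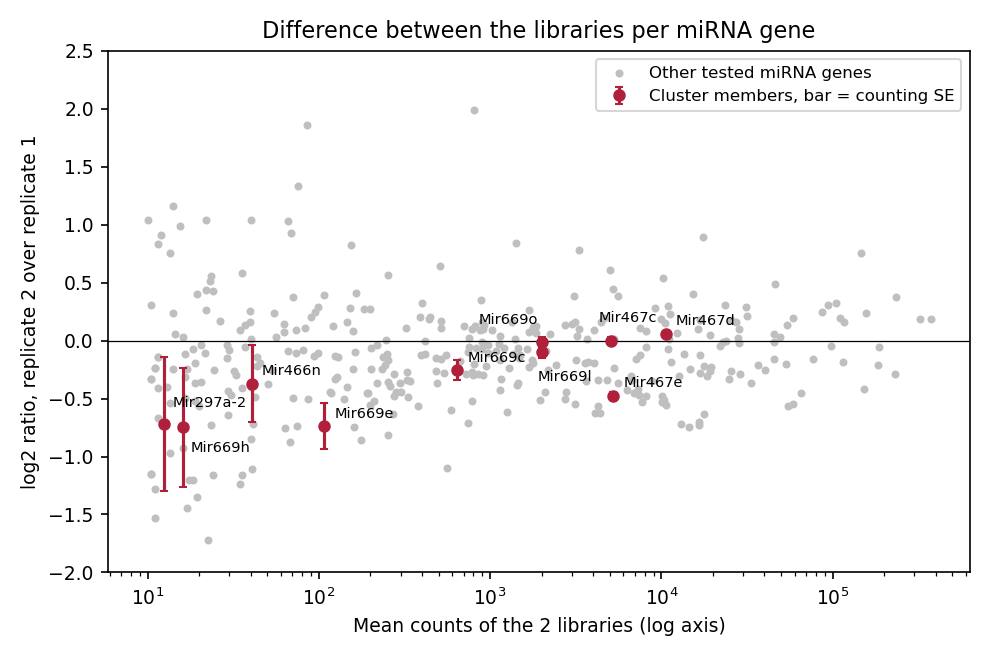
Log2 ratio of replicate 2 over replicate 1, scaled by total counts, against the mean counts of the 2 libraries (log axis) for 372 tested miRNA genes, 1 of them outside the drawn range; cluster members are red with a bar of 1 counting SE. Mir467e at -0.48 lies apart from Mir467c and Mir467d, which have similar or higher counts and sit near 0.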

How the data were processed

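The authors deposited raw read counts per miRNA gene for each of the 2 libraries, aligned to mm10 and counted over GENCODE M4, per the deposited metadata text. Which aligner, counter and read trimming were used is not given in the sources used here. The 3 unnamed count columns and 4 summary rows have the layout of STAR gene counts, and the gene-strand column was used. The age of 14.5 days comes from the labels.

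Genes were matched by identifier to GENCODE M21 on the same assembly, which left 79 of the 1973 rows without a name or position, 2 of them with a count. Some of these may be cluster genes under older identifiers. The RefSeq sequence table matched 0 of the 119 cluster genes and 8 of the 10 family genes elsewhere. Hairpins for the window and folding measures came from the GENCODE M21 transcripts (RNAfold of ViennaRNA 2.7.2). The search of mature sequences over the whole genome was replaced by this hairpin search.

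CPM is counts over the gene-strand total, with depths of 2719153 and 6602050 counts. Library differences were tested with SciPy 1.17.1 (exact binomial, mean of at least 10 counts, prior of 0.5 counts in log2 ratios, adjusted p under 0.05). The step was also run on simulated counts that hold counting error only, which cannot show how it behaves with spread between samples. Scalings by edgeR 4.0.16 TMM and DESeq2 1.42.0 size factors, other count filters, both strands, thinning replicate 2 to the gene-strand total of replicate 1 and other member sets were alternatives.

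Named genes are all members with at least 10 counts in each library, the 10 highest, those called, those with over 3 opposite-strand counts in each library (none), the genes at both ends, family genes elsewhere, cell type markers and imprinted miRNAs. Others were named after their values were seen. The members, lists and tests were chosen with earlier results of these data known. Of the listed genes, Mir409 and Mir292a were not analysed here.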

Additional observations from a re-analysis of the deposited data

How the results depend on the processing

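The cluster's summed level of 5597 CPM moved by less than its SD with both strands together, with only the 4 named families and with either strand of the host gene, and ranged from 5409 to 5785 CPM when each replicate was left out. It was 3342 CPM without Mir467d and 4399 CPM without Mir467e. The settings without Mir467e and the other window rules were chosen after seeing the data. The 25 detected members became 10 at no fewer than 10 counts in each library, 17 at 3 counts over both, 19 with a count in each library, and 21 to 23 with each replicate left out. Thinned to the gene-strand total of replicate 1, replicate 2 alone detected 20 members, against 21 in replicate 1. The log2 ratio of the cluster sum turned from -0.097 to 0.076 with TMM, 0.086 with DESeq2 size factors and 0.0048 without Mir467e. With TMM and DESeq2 size factors Mir467c was at 0.17 and 0.18 and Mir669o at 0.16 and 0.17, in place of values just below 0. These 2 scalings raise every ratio by 0.17 and 0.18, so they turn only ratios close to 0. The number of members called stayed at 4 or 5 under all 5 alternatives. The number without a window of their own was 54 with 18-base windows and 69 with 1 mismatch allowed. The whole-genome search of mature sequences was not run. No paired analysis was possible because there is 1 group. Depth limits the members below about 10 counts, most of the 25.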
